A study of Rattus norvegicus with 22 samples.

Results

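The enzymes described here build pyrimidine and purine nucleotides from small precursors. In all 10 genes were named, by their function: Cad, Dhodh, Umps and Ctps1 of the pyrimidine route, and Ppat, Gart, Pfas, Paics, Adsl and Atic of the purine route. The choice was made with earlier results of these data known. A gene counted as measured where a probe set of the array carried its symbol alone in the platform annotation, and 9 of the 10 did, each with 1 probe set, out of 18166 genes measured in all. The probe set that lists Paics also lists LOC100359876, so Paics has no value here.

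Livers came from female Crl:CD(SD) rats, an outbred Sprague-Dawley stock, and each of 22 arrays held RNA from the median lobe of 1 rat. The 12 vehicle rats received a single intraperitoneal dose of the carrier (mannitol, hydroxypropylmethylcellulose and sodium dodecyl sulphate in sterile water) without test compound. The 10 treated rats received 50 mg/kg GSK932121A in the same carrier, which the series describes as blocking complex III of the mitochondrial electron transport chain, and the label of this group gives 5 hours of treatment. For vehicle rats no time is labelled. The labels give each rat's age as 12 weeks, or 10 to 14 weeks in the housing protocol, and state that the dose was known to be acutely toxic to rats. The submitters left 2 of 12 treated rats out because little compound had reached their plasma. Rats were separate animals, so the spread between arrays includes the spread between animals.

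Pyrimidine synthesis starts in the cytosol with CAD, a multifunctional enzyme that joins carbamoyl phosphate and aspartate and closes the ring to dihydroorotate. DHODH, in the inner mitochondrial membrane, oxidises dihydroorotate to orotate and hands the electrons to coenzyme Q, which complex III then oxidises again. UMPS turns orotate into UMP, and CTPS1 makes CTP from UTP with nitrogen from glutamine. Purine synthesis starts when PPAT places glutamine nitrogen on phosphoribosyl pyrophosphate (PRPP), and GART, PFAS, PAICS, ADSL and ATIC build the ring up to IMP. Both routes are strongly used by dividing cells, and the liver is a main site of purine synthesis in the resting animal.

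After GSK932121A, 3 of the 9 measured genes were higher and none was lower: Ctps1 rose 1.47-fold, Ppat 1.27-fold and Umps 1.20-fold (limma, adjusted p over all genes under 0.05). Over all genes, 12.4% passed this test, 5.31% as rises and 7.05% as falls. Because the 9 genes were chosen with earlier results of these data known, their share is a description only. Cad, Dhodh, Gart, Pfas, Adsl and Atic did not pass. The log2 differences of all 9 genes lay above 0, between 0.01 and 0.56 with a median of 0.14, against a median of -0.01 over all genes, of which 8647 lay above 0. Ctps1 and Umps encode the last of the pyrimidine enzymes listed here, and Ppat encodes the first of the purine enzymes. In whole liver, more RNA per cell and a larger share of cells that carry it cannot be told apart.

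**Figure D1:**
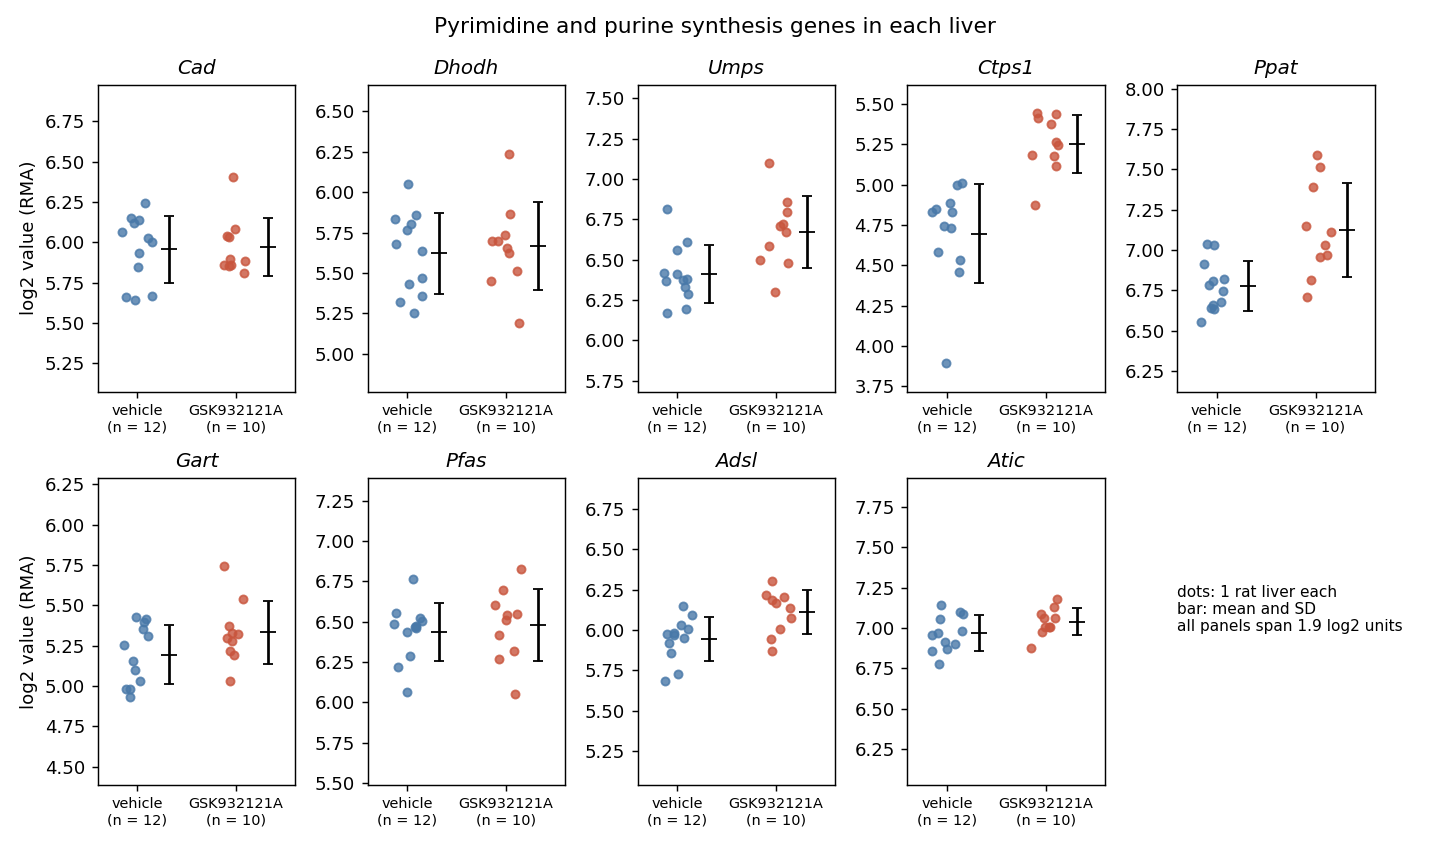
Log2 values of the 9 measured synthesis genes in each liver, in vehicle (n = 12) and GSK932121A (n = 10) rats; dots are single livers, and the bar beside them is the mean with its SD. In Ctps1, 9 of the 10 treated livers lie above the highest vehicle liver, while the groups of Cad, Dhodh and Pfas overlap over most of their range.

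Ctps1 had the largest difference. Its log2 value was 3.89, 4.79 and 5.01 (lowest, median and highest) in vehicle livers and 4.87, 5.25 and 5.44 in treated livers. The difference was 0.56 ± 0.10 (SE; means 4.70 ± 0.31 and 5.25 ± 0.18, SD, n = 12 and 10; limma, adjusted p = 0.000584), with a 95% interval from 0.34 to 0.77. Only GSK932121A replicate 24, at 4.87, lay within the vehicle range, and vehicle replicate 6, at 3.89, stood below the other vehicle livers. The groups of 0 of the 9 genes were fully apart, against 0.738% of all genes. The vehicle mean of Ctps1 lay below every array's median, which ran from 4.73 to 4.85, so the probe set is among the dimmer ones. No background or detection value was used here, and whether its fold is compressed was not tested. A filter at a mean log2 value of 5 removed Ctps1, and of the other 8 synthesis genes 2 passed (Umps and Ppat), where 22.9% of all genes left by the filter did.

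Ctps2, the other CTP synthase gene, did not pass. Its values were 6.84, 7.35 and 7.73 in vehicle and 7.02, 7.05 and 7.89 in treated livers, a difference of -0.13 ± 0.11 (SE; limma, adjusted p = 0.53) with a 95% interval from -0.36 to 0.10. Within each array, the log2 ratio of Ctps1 to Ctps2 was 0.69 ± 0.18 (SE) higher after treatment (two-sided permutation test with 100000 resamples, p = 0.00146), and 5 of 10 treated livers lay above every vehicle liver. This ratio was compared after the values of both genes were seen.

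Umps had the smallest change that passed. Its log2 value was 6.17, 6.38 and 6.82 in vehicle and 6.30, 6.69 and 7.10 in treated livers, with 2 treated livers above every vehicle liver. The difference was 0.26 ± 0.09 (SE; limma, adjusted p = 0.0433; 95% interval from 0.09 to 0.44). The call held without GSK932121A replicate 16, 17, 20 or 24 or vehicle replicate 2, 9 or 10, and was lost on removal of any 1 of the other 15, where the largest adjusted p was 0.0917, on removal of GSK932121A replicate 18. The rank sum test of Wilcoxon (adjusted p = 0.0685; 11.3% of all genes passed) and array weights (0.0585; 12% of all genes passed) ended it as well.

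Dhodh, the enzyme that feeds coenzyme Q, showed no change that passed. Its log2 value was 5.25, 5.66 and 6.05 in vehicle and 5.19, 5.68 and 6.24 in treated livers, so that the treated group reached beyond the vehicle group at both ends. The difference was 0.04 ± 0.11 (SE; limma, adjusted p = 0.859). Its 95% interval, from -0.17 to 0.26, leaves room on the scale of the array for a rise of up to 1.20-fold or a fall of up to 1.13-fold. No detection value was used here, and whether the fold of Dhodh is compressed was not tested. GSK932121A replicate 13 was the highest liver, at 6.24, and without it the difference was -0.019. Cad, which precedes it, differed by 0.01 ± 0.08 (SE; adjusted p = 0.948; 95% interval from -0.16 to 0.19), with values of 5.64, 6.01 and 6.24 in vehicle and 5.81, 5.89 and 6.40 in treated livers. For Cad, 4 treated livers lay above the vehicle median, and GSK932121A replicate 20 alone lay above the vehicle range. The intervals of both genes end below the 1.47-fold difference of Ctps1.

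Among other genes whose products pass electrons to coenzyme Q, 1 of 8 measured passed (12.5%, against 12.4% of all genes). That was Gpd2, mitochondrial glycerol-3-phosphate dehydrogenase, which like DHODH draws its substrate from the outer side of the inner membrane. It rose 1.46-fold: its mean was 5.36 ± 0.23 in vehicle and 5.90 ± 0.30 in treated livers (limma, adjusted p = 0.000941), with 7 treated livers above every vehicle liver. Subunit genes of succinate dehydrogenase did not pass. The largest difference of these was that of Sdhd, -0.25 ± 0.09 (SE; adjusted p = 0.0687), and the median of the 8 genes was -0.08.

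**Figure D2:**
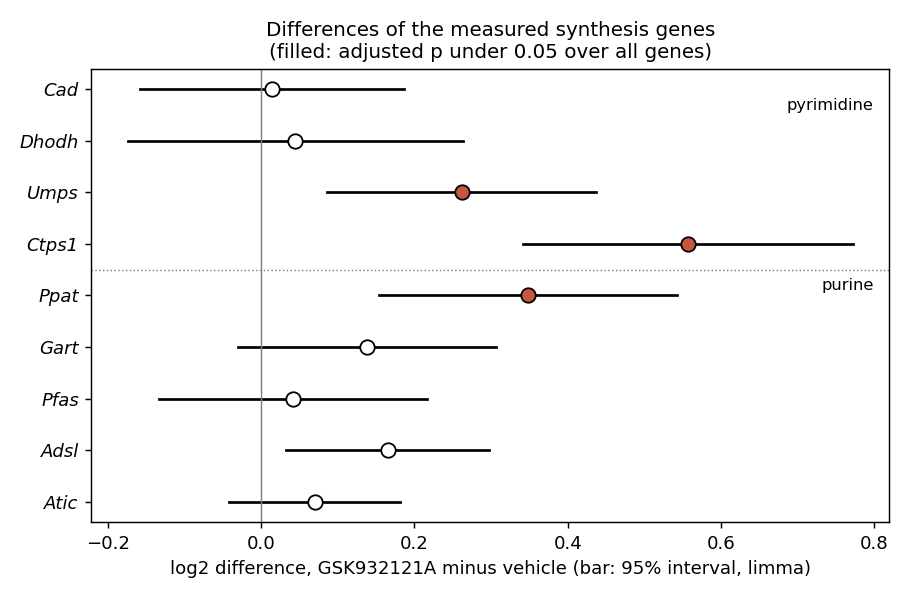
Log2 difference between GSK932121A and vehicle livers for each measured synthesis gene, in pathway order, with its 95% interval from limma (n = 10 and 12); filled points passed at an adjusted p under 0.05 over all genes. Ctps1, Ppat and Umps are filled, and the interval of Adsl also lies above 0 although its adjusted p is 0.101.

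In the purine route, Ppat, whose product catalyses the committed step, was the gene that passed. Its log2 value was 6.55, 6.76 and 7.04 in vehicle livers and 6.71, 7.07 and 7.59 in treated livers. The difference was 0.35 ± 0.09 (SE; means 6.77 ± 0.16 and 7.12 ± 0.29, SD, n = 12 and 10; limma, adjusted p = 0.0144; 95% interval from 0.15 to 0.54). Treated livers were unlike each other: replicates 21, 13 and 14 lay at 7.59, 7.51 and 7.39, and replicates 24 and 20, at 6.71 and 6.81, lay within the vehicle range. In all, 5 treated livers lay above the highest vehicle liver.

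Adsl, which acts late in ring synthesis and again between IMP and AMP, came nearest to passing. Its log2 value was 5.68, 5.97 and 6.15 in vehicle and 5.87, 6.15 and 6.30 in treated livers, with 5 treated livers above every vehicle liver. The difference of 0.17 ± 0.06 (SE; 95% interval from 0.03 to 0.30) had an adjusted p of 0.101 in limma, where the unadjusted p was 0.0163. A two-sided permutation test of this gene alone gave an unadjusted p of 0.00922. Gart, a trifunctional enzyme of the early steps, differed by 0.14 ± 0.08 (SE; limma, adjusted p = 0.327), with values of 4.93, 5.21 and 5.42 in vehicle and 5.03, 5.31 and 5.75 in treated livers. Both groups overlapped in Gart, with 2 treated livers above the vehicle range.

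Atic, the bifunctional enzyme that finishes IMP, and Pfas, which adds the second glutamine nitrogen, showed the smallest differences of the purine route. Atic ran from 6.78 to 7.14 with a median of 6.96 in vehicle, and from 6.88 to 7.18 with a median of 7.03 in treated livers. It was also the steadiest gene among animals, with SDs of 0.11 and 0.08, and its difference was 0.07 ± 0.05 (SE; limma, adjusted p = 0.481; 95% interval from -0.04 to 0.18). Pfas ran from 6.06 to 6.76 with a median of 6.47 in vehicle, and from 6.05 to 6.83 with a median of 6.52 in treated livers, a difference of 0.04 ± 0.08 (SE; adjusted p = 0.831; 95% interval from -0.13 to 0.22). The upper ends of the intervals correspond to a rise of 1.13-fold for Atic and 1.16-fold for Pfas.

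The upstream DNA of these genes is shown for the pair with the largest rises, Ctps1 and Ppat, and for Gart and Atic, in which a searched motif was found. Sequences are the 250 bases before the gene's start in the RefSeq table of build GRCr8, 5′ to 3′ on the gene's own strand, and capitals mark a match to a searched motif.
Ctps1 (chr5:139439383-139439632, minus strand): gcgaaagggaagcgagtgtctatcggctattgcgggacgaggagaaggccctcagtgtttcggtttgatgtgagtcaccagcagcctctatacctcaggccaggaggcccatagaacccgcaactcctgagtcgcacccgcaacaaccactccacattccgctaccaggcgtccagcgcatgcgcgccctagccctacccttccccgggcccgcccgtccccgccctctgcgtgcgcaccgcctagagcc
Ppat (chr14:31569760-31570009, plus strand): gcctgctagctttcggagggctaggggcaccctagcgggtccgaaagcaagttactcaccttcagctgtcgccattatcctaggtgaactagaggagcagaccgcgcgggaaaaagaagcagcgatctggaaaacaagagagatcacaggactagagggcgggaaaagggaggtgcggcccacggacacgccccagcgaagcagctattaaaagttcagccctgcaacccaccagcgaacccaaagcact
Gart (chr11:44377087-44377336, minus strand): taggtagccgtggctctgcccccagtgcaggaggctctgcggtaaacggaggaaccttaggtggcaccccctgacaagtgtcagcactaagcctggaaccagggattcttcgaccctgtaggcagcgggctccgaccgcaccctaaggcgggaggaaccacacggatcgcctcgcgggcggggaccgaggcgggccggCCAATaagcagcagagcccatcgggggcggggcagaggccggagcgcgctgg
Atic (chr9:80614061-80614310, plus strand): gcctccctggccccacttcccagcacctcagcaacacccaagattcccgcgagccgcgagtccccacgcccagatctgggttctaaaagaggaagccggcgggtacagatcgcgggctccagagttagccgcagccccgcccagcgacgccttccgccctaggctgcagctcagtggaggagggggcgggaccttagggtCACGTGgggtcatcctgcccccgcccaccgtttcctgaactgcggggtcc
The search covered windows of 300 bases, from 250 before the start to 50 after it, on both strands, for 3 motifs, and in these genes no match overlapped another. CACGTG, the E-box bound by Myc with Max, was found in Atic alone among 8 of the named genes with a window, at bases -50 to -45 and again at 17 to 22 from the start, and in 6.42% of all 33469 windows. CCAAT, the box bound by NF-Y, was found in Gart at bases -52 to -48, and in 37.5% of all windows. TGATGNAA, the core of the element bound by ATF4 with C/EBP proteins, was found in 0 of the 8, and in 3.98% of all windows. Ppat and Paics overlap at their starts on chromosome 14. Ppat runs upward from 31570010 on the plus strand, and Paics runs downward from 31570035 on the minus strand. The starts are 25 bases apart, and the windows of these genes share 74 bases. Dhodh and Umps have no window in this table.

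Genes around the synthesis routes were then described by list. Some lists hold enzymes and transporters of nucleotide metabolism and its precursors. Others hold the coenzyme Q reducing dehydrogenases given above, the Myc network, and genes of S phase and mitosis. Over all of these lists, 98 genes were measured of 118 listed, 12 rose and 7 fell, and the median difference was -0.02. Of the measured genes 19.4% passed, against 12.4% of all genes, and the lists were chosen with earlier results of these data known. Only counts and medians are given for a list, with no test of the list itself. Means below are given with their SD over 12 vehicle and 10 treated livers.

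**Figure D3:**
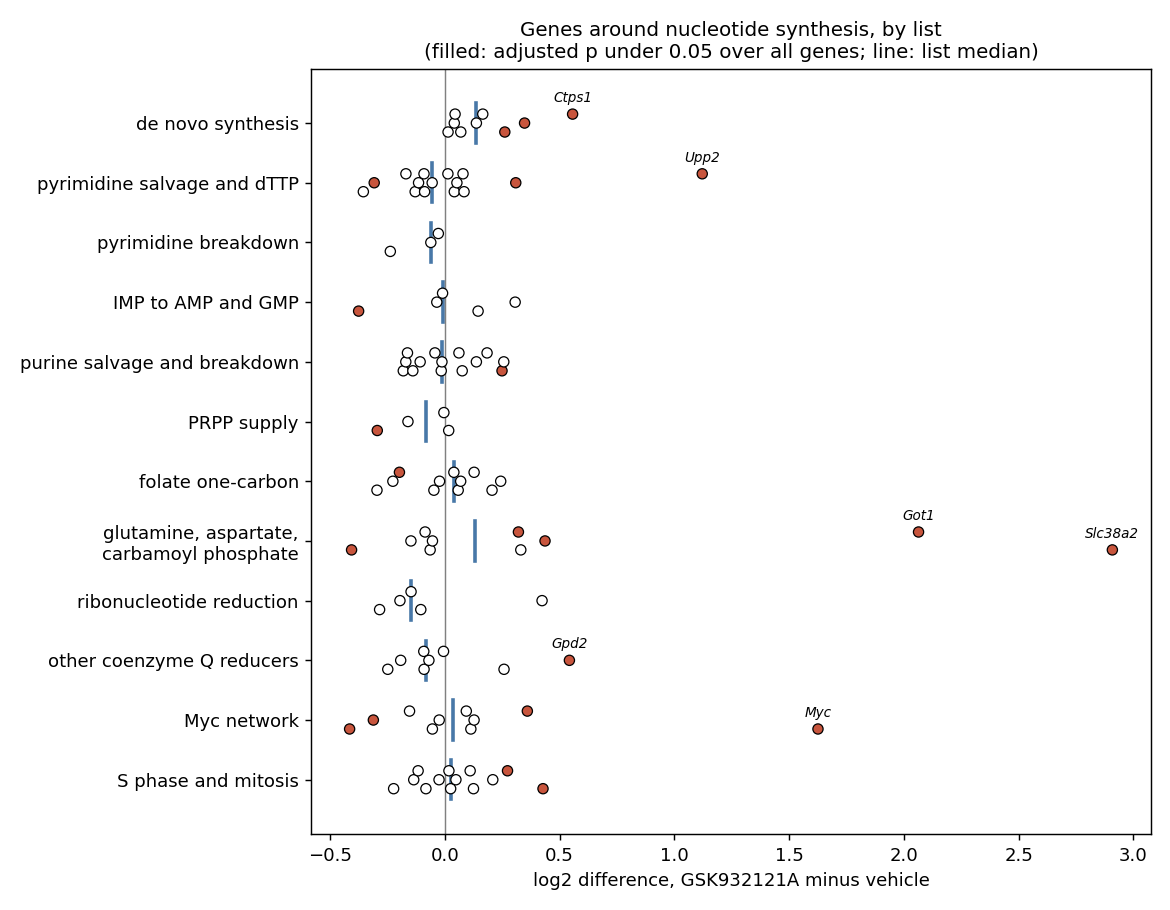
Log2 difference between GSK932121A (n = 10) and vehicle (n = 12) livers for each gene of the synthesis routes and of the lists around them; each circle is 1 gene, filled where its adjusted p was under 0.05 over all genes, and the blue line is the median of the list. Most lists have their median near 0, and filled circles beyond 0.5 are labelled with the gene.

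Uridine phosphorylases rose among the pyrimidine salvage genes. These enzymes split uridine into uracil and ribose phosphate. Upp1 rose 1.24-fold (vehicle mean 5.29 ± 0.11, treated mean 5.59 ± 0.23; limma, adjusted p = 0.00684), with 8 treated livers above every vehicle liver. Upp2, the liver-enriched form, rose 2.18-fold (vehicle mean 8.92 ± 1.08, treated mean 10.05 ± 0.64; adjusted p = 0.0315), but vehicle livers ranged from 7.81 to 11.13 and 0 treated livers lay above them. Removal of any 1 of 6 arrays ended its call (largest adjusted p 0.0699, on removal of GSK932121A replicate 13), as did the rank test (0.0585) and an intensity trend with robust settings (0.0615). Dtymk, which makes dTDP from dTMP, fell 1.24-fold (adjusted p = 0.0495), a call lost without any 1 of 15 arrays (largest adjusted p 0.101, on removal of GSK932121A replicate 13), with cyclic loess (0.06), with median centring (0.0604) and in the rank test (0.0685). The other 12 of 15 measured genes did not pass, among them Tyms, thymidylate synthase, at -0.05 ± 0.08 (SE). Of this list 20% passed, against 12.4% of all genes. Of the 3 pyrimidine breakdown genes Dpyd, Dpys and Upb1, 0 passed in limma, where 12.4% of all genes did. An unadjusted p under 0.05 was found for 1 of them, and for 4354 of all 18166 genes.

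Beyond IMP, 1 of 5 measured genes of the steps to the adenine and guanine nucleotides passed and 1 of 14 of purine salvage and breakdown, where 12.4% of all genes did. Ak3, a mitochondrial GTP:AMP phosphotransferase, fell 1.30-fold (vehicle mean 9.00 ± 0.26, treated mean 8.63 ± 0.20; limma, adjusted p = 0.0106), the 1 call of the first list. Gmps, which makes GMP, differed by 0.31 ± 0.11 (SE) and did not pass (adjusted p = 0.057). Impdh2 was not analysed here. Xdh, xanthine dehydrogenase, which makes uric acid, rose 1.19-fold (vehicle mean 9.05 ± 0.14, treated mean 9.30 ± 0.15; adjusted p = 0.0129), with 7 treated livers above every vehicle liver. It was the 1 call of the second list, whose median difference was -0.01, and Hprt1, which salvages hypoxanthine and guanine, differed by -0.17 ± 0.07 (SE; adjusted p = 0.0984).

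PRPP, the substrate of PPAT and UMPS, is made by PRPP synthetases. Prps2 differed by 0.02 ± 0.11 (SE; limma, adjusted p = 0.951; 95% interval from -0.20 to 0.24), and Prps1 was not analysed here. Prpsap1, a synthetase-associated protein, fell 1.23-fold (vehicle mean 7.71 ± 0.07, treated mean 7.42 ± 0.13; adjusted p = 0.000562), and 9 of 10 treated livers lay below the lowest vehicle liver. It was the 1 call among 4 measured genes of this list (25%, against 12.4% of all genes). Of 11 measured folate genes, which supply formyl groups to GART and ATIC, 1 passed (9.09%, against 12.4% of all genes). It was Shmt1, cytosolic serine hydroxymethyltransferase, which fell 1.15-fold (limma, adjusted p = 0.0467). That call was lost without any 1 of 16 arrays (largest adjusted p 0.0953, on removal of GSK932121A replicate 13), with cyclic loess (0.0995), with median centring (0.0666) and with array weights (0.0663).

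Genes that handle glutamine, aspartate and carbamoyl phosphate had 4 rises and 1 fall among 10 measured. Of these 50% passed, against 12.4% of all genes and 22.9% of genes with a mean log2 value of at least 5. This was the largest share of calls among these lists. Because the lists were chosen with earlier results of these data known, the share is a description only. Slc38a2, a transporter of glutamine and other neutral amino acids, rose 7.51-fold (limma, adjusted p = 3.39e-11), and Got1, cytosolic aspartate aminotransferase, rose 4.18-fold (8.87e-09), each with all 10 treated livers above every vehicle liver. The groups were fully apart in 0.738% of all genes. Gls2, the liver glutaminase, rose 1.35-fold (limma, adjusted p = 0.00121). Cps1, the mitochondrial synthetase that makes carbamoyl phosphate for urea and not for pyrimidines, rose 1.25-fold (vehicle mean 12.45 ± 0.16, treated mean 12.78 ± 0.08; adjusted p = 0.000789). Otc, which uses that carbamoyl phosphate, fell 1.33-fold (adjusted p = 0.00888). CAD carries its own carbamoyl phosphate synthetase, and its gene, as given above, showed no change that passed.

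Myc, a transcription factor known to bind promoters of many nucleotide synthesis genes, rose 3.09-fold. Its log2 value was 6.02, 6.60 and 6.79 in vehicle and 7.25, 8.23 and 9.41 in treated livers (limma, adjusted p = 4.99e-06). The groups did not overlap, as in 0.738% of all genes. Of 10 measured genes of the Myc network, 2 rose and 2 fell. The share that passed was 40%, against 12.4% of all genes and 22.9% of genes with a mean log2 value of at least 5. Mnt, a repressor that competes for Max, rose 1.28-fold (adjusted p = 0.0028), and the repressors Mxi1 and Mxd4 fell, by 1.33-fold with an adjusted p of 0.000415 and by 1.24-fold with one of 0.00209.

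Genes of DNA replication and mitosis gave 2 rises among 13 measured (15.4% passed, against 12.4% of all genes). Pcna, the sliding clamp of replication, rose 1.35-fold (limma, adjusted p = 0.0391), a call lost without any 1 of 13 arrays (largest adjusted p 0.0823, on removal of GSK932121A replicate 18), in the rank test (0.0685) and with array weights (0.0537). Mcm4, a subunit of the replicative helicase, rose 1.21-fold (adjusted p = 0.0238), a call lost without either of 2 arrays (largest adjusted p 0.0521, on removal of GSK932121A replicate 13) and in the rank test (0.0585). Mki67, which marks dividing cells, differed by -0.08 ± 0.12 (SE; adjusted p = 0.741), and the median of the list was 0.03. Of 5 measured genes of ribonucleotide reduction 0 passed in limma, with 3 at an unadjusted p under 0.05, as had 4354 of all 18166 genes. Rrm2, the S-phase subunit of ribonucleotide reductase, was nearest, at 0.42 ± 0.14 (SE; adjusted p = 0.05003), from vehicle values of 3.57 to 4.24 that lay below every array median.

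Markers of the labelled tissue were high: Alb, albumin, stood at 13.41 ± 0.03 in vehicle and 13.38 ± 0.04 in treated livers (SD, n = 12 and 10), and 0 of 5 measured hepatocyte markers passed in limma or had an unadjusted p under 0.05. Over all genes 12.4% passed. Among markers of other liver cells, Cd163 of macrophages rose 1.28-fold (1 of 9 measured) and Lyve1 of sinusoidal endothelium 1.16-fold (1 of 3 measured). The summed log2 values of these lists ran from 68.7 to 75.4 in vehicle and from 70.1 to 74.9 in treated livers for macrophages, and from 25.1 to 26.1 and from 25.4 to 26.2 for endothelium. In limma, 2 macrophage markers and 1 endothelial marker had an unadjusted p under 0.05, as had 4354 of all 18166 genes. No marker of stellate cells (7 measured), cholangiocytes (5), T and B cells (7) or neutrophils (5) passed, with 1, 0, 2 and 0 at an unadjusted p under 0.05. Vehicle means ran from 2.25 to 4.40 for neutrophil markers, below the lowest array median of 4.73. They ran from 3.25 to 5.63 for T and B cell markers. No detection value was used here, so changes of such dim markers can be missed. Markers of red blood cells were not analysed here. The part of these cells in the changes of the synthesis genes was not tested.

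Within a group, the correlations between synthesis genes did not pass. Of the 36 pairs that 9 genes form, 0 passed in either group by Pearson's r or by Spearman's rho (two-sided permutation tests with 100000 resamples, adjusted over the 36 pairs of a group). By r, 0 pairs had an unadjusted p under 0.05, and by rho 3 had one among vehicle and 1 among treated livers. The last was Dhodh and Gart, with rho = 0.82 (permutation p = 0.00609, adjusted p = 0.219) and r = 0.50 (permutation p = 0.145, adjusted p = 0.869), which was 0.50 without the 2 arrays farthest from the median of Dhodh. In vehicle livers, rho was -0.65 for Pfas and Atic (permutation p = 0.0259), 0.62 for Atic and Adsl (permutation p = 0.0339) and -0.62 for Ctps1 and Pfas (permutation p = 0.0376), each with an adjusted p of 0.451. Pearson's r ran from -0.53 to 0.51 with a median of 0.15 among 12 vehicle arrays, and from -0.55 to 0.56 with a median of 0.09 among 10 treated arrays. The highest r was that of Umps and Gart in treated livers, with r = 0.56 (permutation p = 0.0913, adjusted p = 0.869), rho = 0.36 (permutation p = 0.314) and r = 0.29 without the 2 arrays farthest from the median of Umps. For Ctps1 and Ppat, the genes with the largest rises, r was 0.29 (permutation p = 0.426) and rho 0.08 (permutation p = 0.839) among treated livers, and r without 2 arrays was 0.09. With 10 or 12 arrays, weak or moderate relations can be missed. Treated livers had 5 to 8 of the 9 genes above the gene's vehicle mean, with a median of 7.5, and vehicle livers had 2 to 8, with a median of 5.

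**Figure D4:**
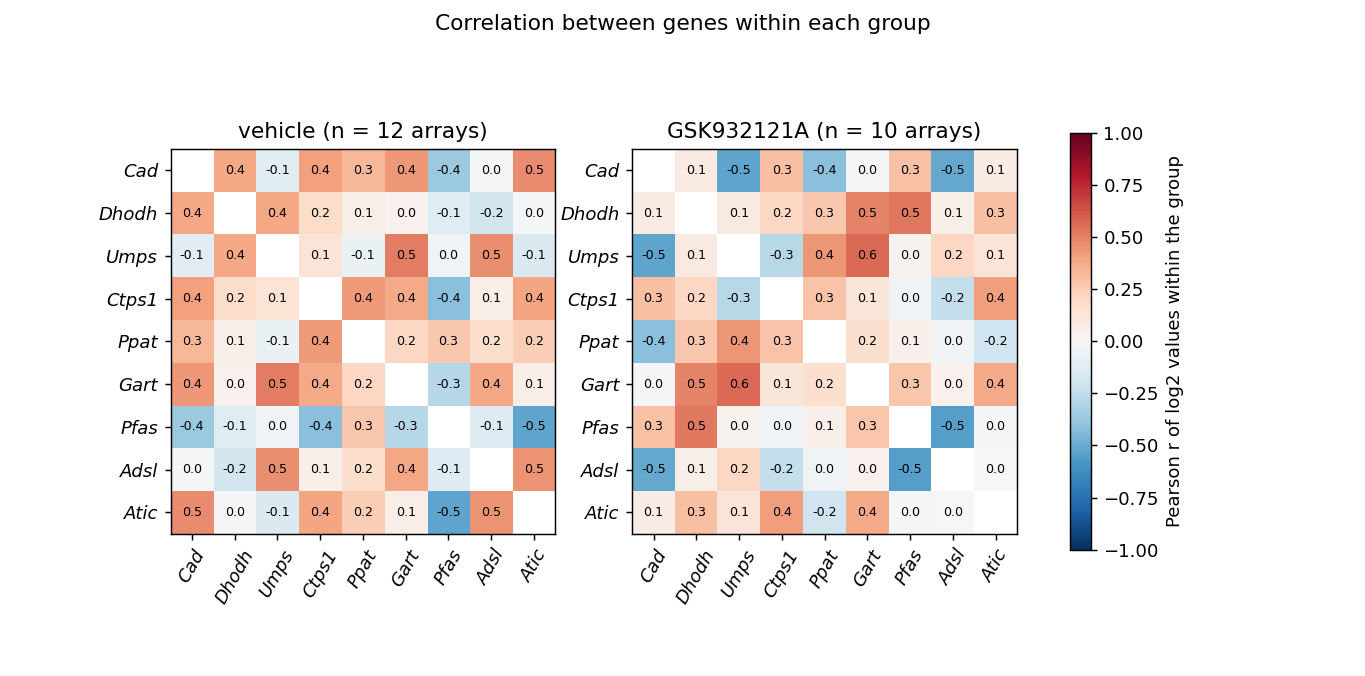
Pearson's r of the log2 values of each pair of synthesis genes, computed within vehicle arrays (left, n = 12) and within GSK932121A arrays (right, n = 10), with the colour running from -1 to 1. No pair exceeds 0.56 in size.

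Over all 22 arrays, where the difference between groups is part of the likeness, the genes most like Ctps1 were Dexi (r = 0.84, rho = 0.88), Iars1, a cytosolic isoleucyl-tRNA synthetase (r = 0.83), Taf4b (r = 0.83), Naa25 (r = 0.83) and Odc1, ornithine decarboxylase of polyamine synthesis (r = 0.83). All 5 also rose, Dexi 2.05-fold, Odc1 1.70-fold, Taf4b 1.52-fold, Naa25 1.31-fold and Iars1 1.28-fold. The genes most like Dhodh were Mrgprd (r = 0.76, rho = 0.76), Prm3 (r = 0.73), Mir3556a (r = 0.69), Vpreb1a (r = 0.68) and Cgm4 (r = 0.67), and none of these passed. Their mean log2 values in vehicle livers lay at 5.27, 5.77, 3.40, 5.45 and 3.25. These correlations were picked as the highest among all genes and are descriptions.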

How the data were processed

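Liver RNA of 22 rats was hybridised to 1 Affymetrix whole-transcript array each. The submitters' processing notes name RMA for the deposited log2 values, a method that corrects background, normalises between arrays and summarises each probe set. The program, its version and the definition of probe sets were not stated in these sources. Normalisation hides any shift common to all genes, and RMA can compress changes of dim probe sets. The number of arrays limits the precision. Arrays correlated at 0.971 to 0.990 across genes, and 0 pairs were identical.

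Of 36685 probe sets, 18511 had 1 symbol, 575 several and 17599 none; the probe set with the highest mean stood for a gene (18166 genes). All genes were fitted in limma 3.58.1 (R 4.3.3; group alone, eBayes without trend or robust settings), with Benjamini-Hochberg adjustment over all of them and a threshold of 0.05. The fit was tested on simulated data. Permutation tests and sequence searches used scipy 1.17.1 and numpy 2.4.6 in Python 3.11.15, with pandas 2.3.3; plots used matplotlib 3.10.9. The members and lists were chosen with earlier results of these data known. Named were all members, every list gene that passed (at most 6 a list), Ctps2, Cps1, Prps1, Prps2, Impdh2, Myc and Alb, and the 5 genes most like Ctps1 and Dhodh; other list genes and markers were added after their values were seen. The 36 pairs replace 45 because Paics had no value. Alternatives were other normalisations, filters on dim genes, the mean of probe sets, trend and robust settings, array weights, rank and permutation tests, and each array left out.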

Additional observations from a re-analysis of the deposited data

Results flagged for a closer look

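The highest GSK932121A value of Cad, 6.40 in replicate 20, stood apart from the other 9 treated livers: its gap to the next value was 0.541 of the group's range, above Dixon's critical value for 10 samples. Of the 9 synthesis genes looked at in this way it was the 1 that stood out, and chance alone marks about 1 group in 20. Without that array the difference of Cad was -0.034, and it did not pass with or without it.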

How the results depend on the processing

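Ctps1 and Ppat kept their calls and their direction under every alternative in which they were tested. With a filter at a mean log2 value of 5, Ctps1 fell below the filter and 2 of 8 members passed, Umps and Ppat. At a mean of 7, 0 members were left to test, so the members' counts and differences have no value there, and 1217 genes passed in place of 2244. Umps kept its difference of 0.26 in the Wilcoxon rank sum test but lost its call, and fell short at 0.24 with array weights. Adsl, at 0.17, was under 0.05 only without adjustment, both in its own permutation test (p = 0.00922) and in limma (p = 0.0163). The difference of Alb was 0.030 with cyclic loess and -0.032 as reported, passing in neither. Leaving out each array in turn, 2 to 3 members, 1854 to 2386 genes and 15 to 21 genes of the other lists passed. The differences then ran from 0.48 to 0.60 for Ctps1, 0.30 to 0.39 for Ppat, 0.21 to 0.30 for Umps, -0.034 to 0.040 for Cad, -0.019 to 0.098 for Dhodh, 0.092 to 0.17 for Gart, 0.0027 to 0.089 for Pfas, 0.052 to 0.087 for Atic, 0.14 to 0.19 for Adsl and -0.031 to 0.089 for Prps2. Cad changed sign without 4 arrays, Dhodh without 1 and Prps2 without 5, and none of these passed. No paired analysis was possible because the groups share no replicate numbers. The cause of these shifts was not tested.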

Other observations

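Myc was set against each of the 9 synthesis genes within each group after its rise was seen, which gives 18 correlations. None passed with adjustment over all 18, and 2 had an unadjusted permutation p under 0.05, both among the 10 treated livers. Umps was higher in livers with more Myc (r = 0.78, permutation p = 0.00729, adjusted p = 0.092; rho = 0.75, permutation p = 0.0177), with r = 0.70 without the 2 arrays farthest from the median of Myc. Cad was lower in livers with more Myc (r = -0.72, permutation p = 0.0102, adjusted p = 0.092; rho = -0.71, permutation p = 0.0267), with r = -0.78 without 2 arrays. Among the 12 vehicle livers r was -0.41 for Umps and -0.20 for Cad.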
